A study of Mus musculus with 80 samples.

Results

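The genes described here are 35 genes of cholesterol and fatty acid synthesis that are known as targets or regulators of the sterol regulatory element-binding proteins (SREBPs), measured in AgRP neurons of the mouse arcuate nucleus. They were taken from a table of 23337 genes by symbol, from a list drawn up with earlier results of these data known: 34 were found under their current symbol, and Msmo1 under its older symbol Sc4mol. They comprise 20 genes of sterol synthesis, 7 of lipogenesis, and 8 regulators and transporters. All 35 passed the filter on low values in each experiment, so that none was left out of a test.

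The series compared feeding states, times of day, leptin and loss of the clock gene Bmal1 (Arntl) in 80 RNA-seq libraries of 20 groups. NPY::hrGFP mice, in which cells that make the peptide NPY carry a green fluorescent protein, gave sorted cells from ad libitum fed mice (6 libraries at ZT2 and 3 at ZT14), from mice after an effective fast of 24 h (7 and 8) and from fasted mice refed for 1 h (5 and 4). ZT counts hours from lights on. AGRP-Cre;RiboTag mice, in which Cre under the Agrp promoter tags ribosomes, gave immunoprecipitated RNA from ad libitum fed mice (3 libraries at ZT2 and 4 at ZT14) and fasted mice (5 and 5). AGRP-Cre;BMAL1fx knockouts and WT;BMAL1fx controls, both with floxed Bmal1 and the controls without Cre, received leptin or PBS at ZT2 or ZT14, with 3 libraries a group except 4 of controls with PBS at ZT2. A further 2 control and 3 knockout libraries were taken at ZT5, where the labels give no treatment. The leptin dose, strain, age and number of mice are not given in the labels, nor whether a library is 1 mouse, so that p-values measure the spread between libraries, which may be technical.

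SREBPs are transcription factors held in the endoplasmic reticulum with the escort protein Scap while sterols are plentiful, under the retention factors Insig1 and Insig2, and released by proteolysis to enter the nucleus when sterols fall. Srebf2 is known mainly for driving sterol synthesis and Srebf1 for driving lipogenesis, the making of fatty acids from acetyl-CoA, which insulin and feeding raise in liver. Neurons of the adult brain make part of their own cholesterol, although glia are held to supply much of it, and AgRP neurons are known to drive feeding and to become active in fasting.

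Promoters are shown for 5 genes that carry the results below: Hmgcs1 and Idi1 of sterol synthesis, Fasn of lipogenesis, and Insig1 and Abca1 among the regulators. Each is the 250 bases before the RefSeq start site in GRCm38.p6, read 5′ to 3′ on the gene's strand. The windows are chr13:119690101-119690350 (plus strand) for Hmgcs1, chr13:8885356-8885605 (plus) for Idi1, chr11:120824548-120824797 (minus) for Fasn, chr5:28071162-28071411 (plus) for Insig1 and chr4:53159896-53160145 (minus) for Abca1. Capitals mark the sterol regulatory element TCACNCCAC, the E-box CACGTG that clock factors such as BMAL1 are known to bind, and the CCAAT box that NF-Y binds beside SREBPs (read ATTGG on the other strand).
Hmgcs1: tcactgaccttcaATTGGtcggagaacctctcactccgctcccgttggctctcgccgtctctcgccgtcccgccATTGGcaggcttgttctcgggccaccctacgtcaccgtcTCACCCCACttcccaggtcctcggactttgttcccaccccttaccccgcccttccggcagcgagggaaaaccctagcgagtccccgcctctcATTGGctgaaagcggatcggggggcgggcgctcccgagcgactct
Idi1: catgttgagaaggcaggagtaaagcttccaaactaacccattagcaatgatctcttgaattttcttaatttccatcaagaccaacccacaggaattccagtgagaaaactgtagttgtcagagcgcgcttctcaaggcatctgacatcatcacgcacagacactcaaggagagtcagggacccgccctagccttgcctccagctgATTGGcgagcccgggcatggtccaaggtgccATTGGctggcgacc
Fasn: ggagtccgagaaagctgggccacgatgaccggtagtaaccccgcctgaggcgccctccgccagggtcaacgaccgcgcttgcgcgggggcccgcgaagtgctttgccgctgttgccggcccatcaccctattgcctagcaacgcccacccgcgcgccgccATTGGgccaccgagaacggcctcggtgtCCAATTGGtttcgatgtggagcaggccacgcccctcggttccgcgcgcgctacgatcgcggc
Insig1: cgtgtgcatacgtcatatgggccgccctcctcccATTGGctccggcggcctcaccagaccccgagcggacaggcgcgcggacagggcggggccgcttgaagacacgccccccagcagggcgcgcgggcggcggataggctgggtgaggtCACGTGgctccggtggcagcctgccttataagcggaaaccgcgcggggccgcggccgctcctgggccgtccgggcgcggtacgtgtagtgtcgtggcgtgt
Abca1: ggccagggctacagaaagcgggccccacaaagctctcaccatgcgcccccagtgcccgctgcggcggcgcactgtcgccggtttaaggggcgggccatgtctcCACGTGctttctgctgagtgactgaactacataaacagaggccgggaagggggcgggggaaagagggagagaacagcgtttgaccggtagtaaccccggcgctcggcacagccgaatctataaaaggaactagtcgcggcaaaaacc

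A RefSeq promoter window of 300 bases (250 before to 50 after the start) was found for 29 of the 35 genes, 37 windows in all. On either strand, the CCAAT box lay in windows of 23 of the 29 genes (24 of 37 windows), against 37.4% of all 32851 windows, and in 16 of the 17 sterol synthesis genes with a window. The E-box lay in windows of 6 genes (Dhcr7, Hsd17b7, Sc5d, Insig1, Scap and Abca1; 7 of 37 windows), against 7.15% of all windows. The sterol element as spelled lay in 1, that of Hmgcs1, with its first base at position -137 from the start, against 1.24% of all windows. In Fasn a pair of CCAAT boxes on opposite strands overlaps. A match is a description of letters, and the absence of one says nothing about binding.

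Before any contrast, several libraries stood apart. All 25 fasted and all 5 ZT5 libraries had Alyref, an RNA export adaptor, at 545 to 2756, against 12.3 to 81.8 in the other 50, and Cebpb, a stress-responsive transcription factor, with medians of 381 in fasted and 525 in ZT5 libraries against 0 to 17.1 in the others. The ribosomal RNA transcript Rn45s had medians of 8300 in fasted and 3112 in ZT5 libraries against 209800 in the others, which it overlapped through 1 library (RiboTag fasted ZT2 replicate 3, at 148400). Ad libitum and refed libraries both lack this profile, so that in every contrast with fasted libraries it cannot be told apart from fasting. Values of 1 library, NPY-GFP ad libitum ZT2 replicate 4, were not whole multiples of a step as in the other 79, whose recovered reads ranged from 5.92 to 33.98 M (median 14.27 M). Arntl, the targeted gene, was 259 to 436 in knockouts and 682 to 1211 in controls with leptin at ZT2, but overlapped in the other pairs of groups (108 to 262 against 223 to 353 with leptin at ZT14). Hsd11b2, a steroid dehydrogenase, was 2092 to 3749 in all knockouts and 0 to 19.7 in all controls of the leptin series. It was also 1048 to 3971 in RiboTag libraries, whose mice carry AGRP-Cre as the knockouts do, and 0 to 23.3 in NPY-GFP libraries. A high level is therefore not particular to loss of Bmal1, and its cause was not tested. At ZT5, however, it was 4628 in the library labelled control replicate 1 and 11.2 in that labelled knockout replicate 3, each against its label, so that each ZT5 contrast of genotypes below is one of labels. All 9 markers of AgRP neurons were found in each group, with summed levels of 26850 to 4262000. In sorted cells the 9 oligodendrocyte markers summed to 751 to 7025, and in RiboTag RNA to 11110 to 250400, with no overlap. In bulk RNA such as this, fewer cells of a type and less RNA per cell cannot be told apart.

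Levels below are normalised read counts (the authors' count divided by a size factor per library). Exon length is the union of all annotated exons of a gene, which can exceed the length of a single transcript. Per kilobase of exon, the highest median level over all 80 libraries was that of Pmvk, phosphomevalonate kinase (1349), followed by Insig2 (784), the squalene synthase Fdft1 (765), the ATP citrate lyase Acly (747), the HMG-CoA synthase Hmgcs1 (699) and the methylsterol oxidase Msmo1 (629). The lowest were the stearoyl-CoA desaturase Scd1 (9.86 per kilobase), the sterol exporter Abca1 (14.5), the acetyl-CoA carboxylase Acaca (15.2) and the lanosterol synthase Lss (15.9). Within groups, Insig2 varied least (median coefficient of variation 9.26%) and Scd1 most (58.6%). Scd1 and Scd2 are neighbouring paralogs on chromosome 19, and how reads shared by both were counted is not given in the sources used here.

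Fasting was compared with ad libitum feeding in sorted cells first at ZT2, early in the light phase. The fatty acid synthase Fasn, Acaca and the desaturase Scd2 fell about 4-fold, the sterol genes Hsd17b7, Hmgcs1 and Idi1 fell 3.36-, 2.66- and 2.40-fold, and Insig2, the oxysterol receptor Nr1h2 (LXR beta) and the lanosterol demethylase Cyp51 rose. Of the 35 genes 3 rose and 12 fell (limma, adjusted p under 0.05), 42.9% in all, where 37.5% of all 14931 genes tested were called in this comparison (18.3% rising and 19.2% falling). The count was near the background. The median log2 difference was -2.10 in lipogenesis, -0.45 in sterol synthesis and -0.60 among regulators, against -0.02 over all genes tested.

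In lipogenesis 4 of 7 genes fell and none rose. Fasn (chr11:120805846-120824547) ranged from 1142 over a median of 1788 to 3048 in the 6 ad libitum libraries and from 263 over 412 to 691 in the 7 fasted ones (1895 ± 739 against 436 ± 164, SD). Acaca (chr11:84129672-84401651), which makes malonyl-CoA for Fasn, ranged from 329 over 411 to 744 and from 62.7 over 100.1 to 179. Scd2 (chr19:44293674-44306864), which desaturates fatty acids and is the main form in brain, ranged from 2678 over 3828 to 4260 and from 480 over 842 to 1341. Each fasted library was below each ad libitum library for all 3 genes. The log2 differences were -2.12 ± 0.39 (SE; adjusted p = 6.61e-05) for Fasn, -2.12 ± 0.30 (adjusted p = 1.32e-06) for Acaca and -2.11 ± 0.32 (adjusted p = 3.37e-06) for Scd2. The low-expressed Scd1 fell by 2.10, from 13.5 over a median of 56.5 to 105 in ad libitum to 0 over 9.33 to 98.1 in fasted libraries, which overlapped through fasted replicate 6 and others. Acly, which supplies cytosolic acetyl-CoA, Acss2, which makes it from acetate, and the elongase Elovl6 did not pass, with log2 differences of 0.23 ± 0.30, -0.20 ± 0.28 and -0.02 ± 0.20.

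**Figure D1:**
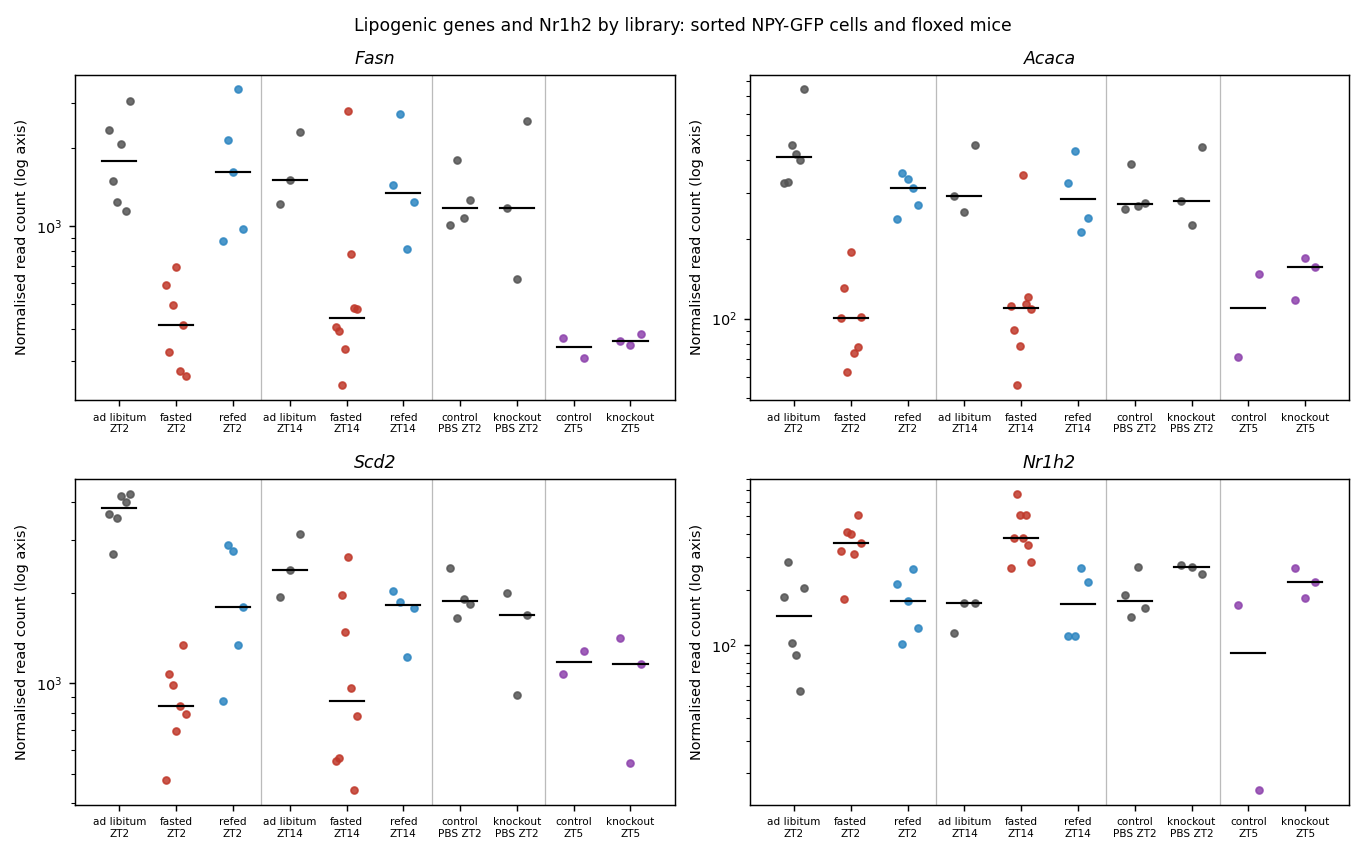
Normalised read count (log axis) of Fasn, Acaca, Scd2 and Nr1h2 in each library of sorted NPY-GFP cells by feeding state and time, and in floxed mice with PBS at ZT2 and at ZT5; points are libraries and bars medians. Fasted libraries at ZT2 lie below all ad libitum libraries for Fasn, Acaca and Scd2, and the ZT5 libraries of Fasn lie at 307 to 381.

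In sterol synthesis 1 of 20 genes rose and 5 fell. Hmgcs1 (chr13:119690379-119708260), whose product condenses acetyl-CoA units into HMG-CoA, ranged from 3024 over 4219 to 5320 in ad libitum and from 942 over 1532 to 2419 in fasted libraries, with no overlap. Its log2 difference was -1.41 ± 0.27 (adjusted p = 7.79e-05). Idi1, the isopentenyl isomerase, Hsd17b7 and Msmo1 of the late steps, and Fdft1 also fell, by 1.26, 1.75, 0.66 and 0.65 on the log2 scale. Cyp51, of the same late steps, rose by 0.73 ± 0.20 (adjusted p = 0.00443), from 1202 ± 253 (n = 6) to 2051 ± 665 (n = 7). The squalene epoxidase Sqle stood at means of 1227 ad libitum and 1242 fasted (log2 difference -0.00 ± 0.27), and Mvd at 295 and 294. Sqle ranged from 872 over 1282 to 1574 in ad libitum and from 654 over 1199 to 1719 in fasted libraries. The fall therefore covered some steps of the pathway, and the calls of Fdft1 and Msmo1 were lost in 5 and 7 of 20 other settings.

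Among regulators and transporters 2 rose and 3 fell. Insig2 ranged from 1757 over 2277 to 2791 in ad libitum and from 3470 over 3738 to 4069 in fasted libraries, with no overlap and a log2 difference of 0.71 ± 0.14 (adjusted p = 8.76e-05). Its paralog Insig1, which is itself an SREBP target, fell by 1.17, from 229.9 over 460 to 849 in ad libitum to 131 over 177 to 339 in fasted libraries, which overlapped, and its call was lost in 1 of 20 other settings. Nr1h2, which senses oxysterols, rose by 1.36 ± 0.32 (adjusted p = 0.00101), from 56.5 to 282 in ad libitum to 178 to 508 in fasted libraries, which overlapped. Stard4, a carrier of sterol between membranes, ranged from 185 over 258 to 365 and from 37.8 over 89.9 to 135, with no overlap and a log2 difference of -1.73 ± 0.44 (adjusted p = 0.00208). Abca1, an LXR target, fell by 1.05, a call lost in 7 of 20 other settings. Srebf1 ranged from 214 over 295 to 444 in ad libitum and from 146 over 193 to 694 in fasted libraries, and Srebf2 from 292 over 617 to 1226 and from 228 over 368 to 630.1. Both genes overlapped widely. Srebf1, Srebf2 and Scap did not pass, with log2 differences of -0.25 ± 0.36, -0.62 ± 0.42 and -0.58 ± 0.30.

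Other values moved with this contrast. Summed AgRP markers were 196100 to 470600 in ad libitum and 326700 to 1059000 in fasted libraries at ZT2, and fasted replicates 3 and 6 held glial markers (astrocyte sums of 17680 and 39580, against 2951 to 6024 in the other ZT2 libraries of both states). Without libraries high in glial markers, a setting chosen after seeing the data, 3 genes rose and 10 fell. Genes with a longer union of exons were lower in fasted libraries. Over the 13416 genes with a known exon length, length and log2 difference had Spearman's rho = -0.31. Genes are not independent, and among the 35 genes rho was -0.35. The 1301 genes of 10 kilobases of exon or more had a median log2 difference of -0.96 against 0.06 for the rest, and Fasn, Acaca, Acss2, Lss and Abca1 are of that length. The part of these in the fall of the lipogenic genes was not tested.

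The ZT5 libraries, whose feeding state the labels do not give, carry the same profile, and their levels are set here beside those of other experiments without a test. Fasn was 369 and 307 in libraries labelled ZT5 control and 359, 346 and 381 in those labelled knockout, within the range of fasted cells and below the 1011 to 1809 of controls with PBS at ZT2. Acaca was 71.6 to 170 at ZT5 against 227 to 450 over both genotypes with PBS at ZT2. Between libraries labelled ZT5 control and controls with PBS at ZT2 the median log2 difference of group means was -1.14 in lipogenesis (lower in 6 of 7) and -1.33 among regulators (7 of 8), but 0.37 in sterol synthesis (higher in 12 of 20), against -0.13 over 13367 genes. Hmgcs1 (2591 and 2446 against 2328 to 6934) and Cyp51 (941 and 1115 against 1836 to 3000) were among the 8 sterol genes with a lower mean at ZT5. Insig2, which rose in fasted cells, was the only regulator with a higher mean. It was 3966 and 4453 in libraries labelled ZT5 control and 3458, 3862 and 4019 in those labelled knockout. Over both genotypes with PBS at ZT2 Insig2 was 2408 to 2839. Whether ZT5 mice had food, and what part the profile has in these levels, was not tested.

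At ZT14, in the dark phase, the same contrast called 2 rising and 3 falling genes, 14.3% of the 35, against 18.5% of all genes (9.66% rising and 8.81% falling). Fasn fell by 1.60 ± 0.48 (adjusted p = 0.0174), Acaca by 1.53 ± 0.37 (adjusted p = 0.00332) and Scd2 by 1.32 ± 0.39 (adjusted p = 0.0156). Fasn was 1216, 1507 and 2310 in the 3 ad libitum libraries and 241 over a median of 442 to 2803 in the 8 fasted ones. Fasted replicate 5 alone reached 2803, and the other 7 lay at 241 to 780, below all ad libitum libraries. Fasn was lost in 4 and Scd2 in 2 of 18 other settings, among them without ad libitum replicate 2 or replicate 3, each of which left 1 falling call. All 3 genes are among the 12 that fell at ZT2, and how many of all genes fell at both times was not counted.

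Cyp51 rose by 1.16 ± 0.25 at ZT14 (adjusted p = 0.000983), from 1224, 1498 and 1625 to a range of 2611 to 3628 with no overlap. Nr1h2 rose by 1.41 ± 0.39 (adjusted p = 0.0099), from 116, 169 and 170 to 263 to 665, also with no overlap. No other sterol gene was called: Hmgcs1 had a log2 difference of -0.34 ± 0.32, Idi1 of -0.31 ± 0.43 and Stard4 of -0.44 ± 0.53. The difference between ZT14 and ZT2 in the fasting effect was tested as an interaction in limma, with 0 genes called in the whole table. Of the 35 genes 2 had an unadjusted p under 0.05 there, Hmgcs1 (1.07 ± 0.42) and Scd1 (2.76 ± 1.13), against 4.33% of all genes. The quasi-likelihood test of edgeR called 0 as well. The fasting effect on sterol genes is therefore not shown to differ between the times.

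**Figure D2:**
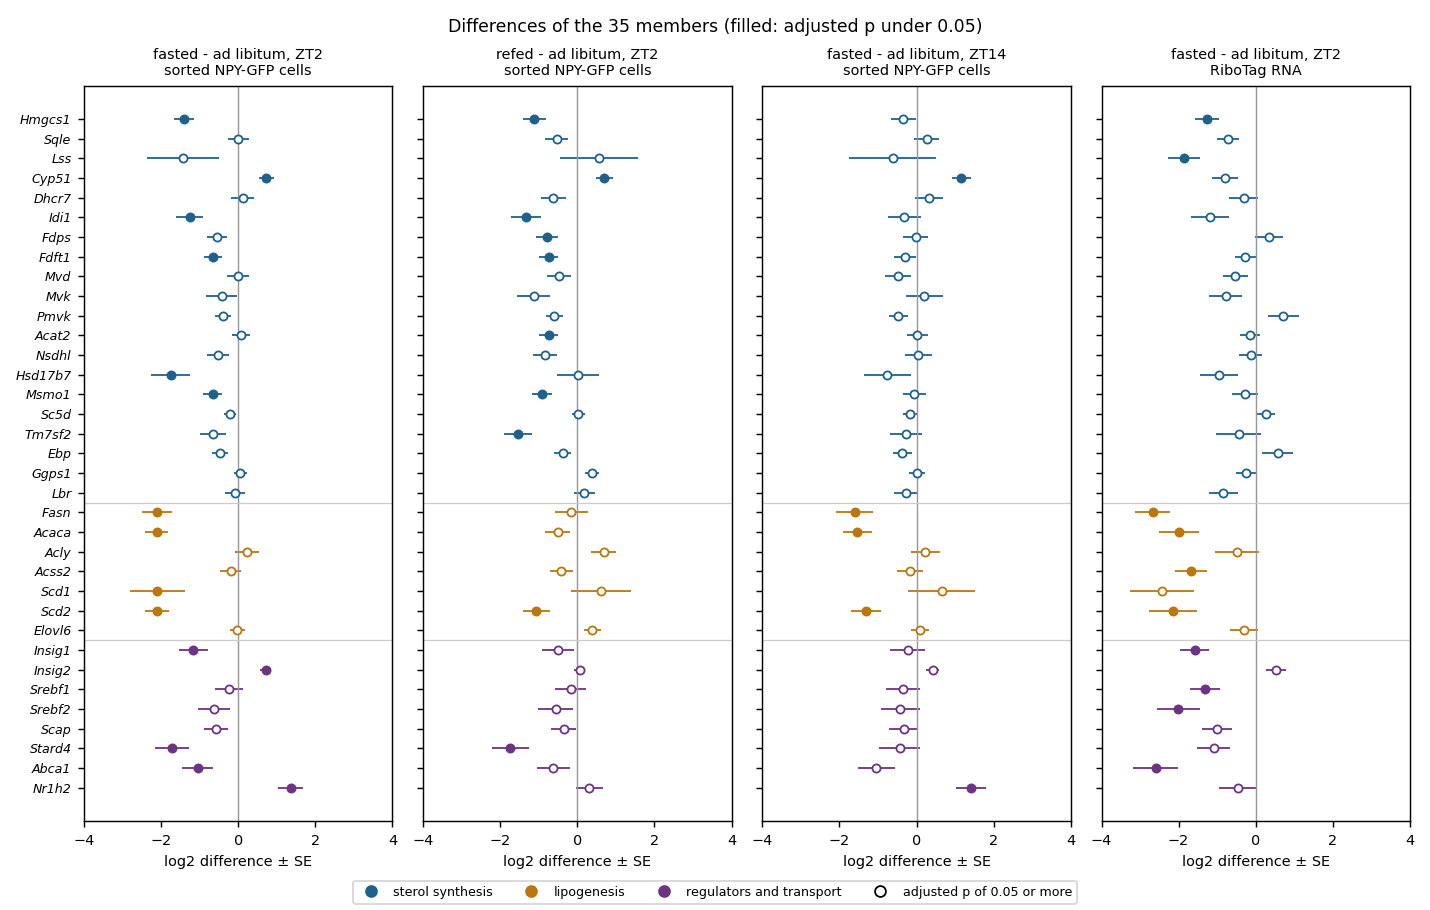
Log2 difference ± SE of each of the 35 genes, grouped as sterol synthesis, lipogenesis and regulators, in 4 contrasts of feeding states; filled points have an adjusted p under 0.05 in limma. Fasn, Acaca and Scd2 lie between -2.12 and -2.11 in sorted cells at ZT2, and refed cells at ZT2 have 7 sterol synthesis genes called below ad libitum cells.

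Refeeding for 1 h was then compared with fasting. At ZT2 Fasn, Acaca, Scd1 and Scd2, 4 of the 7 lipogenic genes, and Hsd17b7 rose. Of the 35 genes 5 rose and 3 fell (22.9%), near the 21.8% of all genes (10.8% rising and 11.1% falling). Lipogenesis had a median log2 difference of 1.05 and sterol synthesis of -0.15, against -0.06 over all genes. Fasn was 877, 2166, 1620, 3391 and 976 in the 5 refed libraries, all above the fasted range of 263 to 691, a rise of 1.95 ± 0.41 (adjusted p = 0.00066). Acaca was 240, 357, 339, 315 and 270.2, also all above the fasted range of 62.7 to 179, a rise of 1.61 ± 0.32 (adjusted p = 0.000287). In 3 of the 5 refed libraries Fasn was above 1142, its lowest ad libitum level. Scd1 was 74.8, 78.0, 47.4, 297 and 32.7 in refed libraries, a rise of 2.70 ± 0.75 (adjusted p = 0.00819), and Scd2 was 877, 2884, 2758, 1343 and 1792, a rise of 1.05 ± 0.34 (adjusted p = 0.0224). Both overlapped with fasted libraries. Hsd17b7 rose by 1.76 ± 0.53 (adjusted p = 0.0151) with no overlap. Insig2 fell by 0.65 ± 0.14 (adjusted p = 0.000857) and Nr1h2 by 1.05 ± 0.34 (adjusted p = 0.022), and so did Acat2, the cytosolic acetoacetyl-CoA thiolase, by 0.82 ± 0.24 (adjusted p = 0.0133). Hsd17b7, Acat2, Scd2 and Nr1h2 were each lost in 2 or 3 of 19 other settings.

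At ZT14 refeeding against fasting called Acaca (1.39 ± 0.33, adjusted p = 0.00398) and Fasn (1.40 ± 0.43, adjusted p = 0.0287) as rising and Nr1h2 (-1.28 ± 0.35, adjusted p = 0.0126) as falling, 8.57% of the 35 against 11.7% of all genes (6.36% rising and 5.3% falling). Refed libraries held Fasn at 1440, 2722, 814 and 1243, and Acaca at 327, 434, 214 and 242, which overlapped with fasted libraries only through fasted replicate 5. Without that replicate 5 genes were called, and without refed replicate 1 or refed replicate 2 only 1, Acaca. No sterol synthesis gene was called at this time by limma or by the quasi-likelihood test. Among them 3 had an unadjusted p under 0.05 in limma, all higher when refed, where 24% of all genes had one. Both contrasts of refed with fasted cells carry the profile difference above, since fasted libraries have it and refed ones do not.

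Refed and ad libitum libraries, which both lack that profile, were compared directly. At ZT2, 7 of the 20 sterol synthesis genes, Tm7sf2 and Hmgcs1 among them, were lower in refed cells, and 1, Cyp51, was higher. Of the 35 genes 1 rose and 9 fell (28.6%), against 17.7% of all genes (9.01% rising and 8.72% falling). The median log2 difference was -0.62 in sterol synthesis (14 of 20 lower), -0.16 in lipogenesis and -0.43 among regulators, against -0.14 over all genes tested, a general shift that was -0.10 after TMM rescaling and -0.06 in the quasi-likelihood test. The share of rising calls over all genes was 50.8% in limma and 68.3% in the quasi-likelihood test, which called 1 rising and 4 falling of the 35 (8.16% and 3.8% of all genes).

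Tm7sf2, a sterol reductase, was 47.9, 35.2, 65.6, 26.1 and 39.1 in refed libraries, all below the ad libitum range of 79.3 to 159, with a log2 difference of -1.54 ± 0.36 (adjusted p = 0.00368). Hmgcs1 was 1401, 2342, 4300, 1008 and 1719 against 3024 to 5320, a difference of -1.11 ± 0.29 (adjusted p = 0.00732), with refed replicate 3 inside the ad libitum range. These 2 genes kept their call in each of 18 other settings. Idi1 was 38.6, 76.6, 164, 44 and 95 against 134 to 303 (-1.34 ± 0.39, adjusted p = 0.0152), and Stard4 was 80.6, 133, 232, 11 and 101.3 against 185 to 365 (-1.74 ± 0.48, adjusted p = 0.0105). For both genes only refed replicate 3 lay within the ad libitum range. Msmo1 (-0.92 ± 0.27, adjusted p = 0.0153), Acat2 (-0.75 ± 0.25, adjusted p = 0.0353), Fdft1 (-0.75 ± 0.26, adjusted p = 0.0387) and Fdps, the farnesyl diphosphate synthase (-0.79 ± 0.29, adjusted p = 0.0495), also fell, and Scd2 fell by 1.06 ± 0.35 (adjusted p = 0.0304). Cyp51 rose by 0.70 ± 0.22 (adjusted p = 0.0256). Of the 18 other settings Fdps was lost in 14, Acat2 in 10, Fdft1 in 9, Scd2 in 7 and Cyp51 in 5. Sqle, at 528, 1234, 1811, 553 and 591, Insig1, at 217, 504, 325, 388 and 241, and Srebf2, at 321, 640, 737, 381 and 196, were not called. Each had refed libraries inside the ad libitum range. Fasn and Acaca had differences of -0.16 ± 0.43 and -0.51 ± 0.33 and did not pass.

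**Figure D3:**
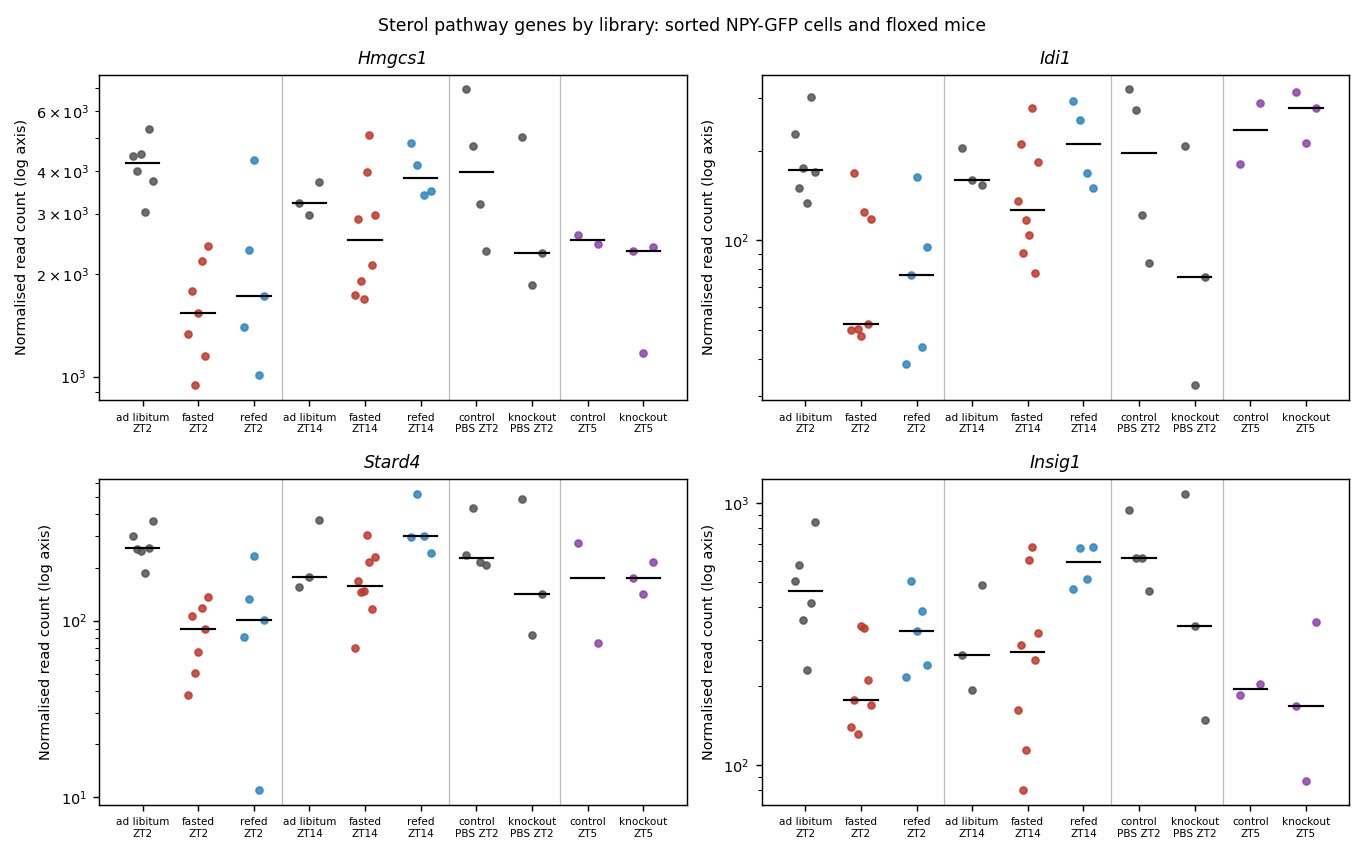
Normalised read count (log axis) of Hmgcs1, Idi1, Stard4 and Insig1 by library in sorted NPY-GFP cells and in floxed mice with PBS at ZT2 and at ZT5; points are libraries and bars medians. At ZT2 the fasted and 4 of 5 refed libraries of Hmgcs1 lie below the ad libitum range of 3024 to 5320, whereas refed libraries at ZT14 lie at 3409 to 4831.

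This count rested on single libraries: it was 2 without refed replicate 4, 4 without refed replicate 1, 13 without refed replicate 3 and 6 without ad libitum replicate 4. Summed AgRP markers were 551900 to 2164000 in the refed and 196100 to 470600 in the ad libitum libraries at ZT2, with no overlap, and their part in the result was not tested. At ZT14 the same contrast called 0 of the 35 in limma and 0 in the quasi-likelihood test, where limma called 0.375% of all genes. An unadjusted p under 0.05 in limma was found for 1 of the 35, against 6.43% of all genes. There refed Hmgcs1 was 4831, 4156, 3409 and 3487 against 3213, 2975 and 3713, and refed Stard4 was 299, 525, 302 and 241 against 156, 178 and 373. The values of the 12 genes that fell with fasting at ZT2 stand beside these without a test, since both contrasts share the ad libitum libraries: Hmgcs1 -1.41 fasted and -1.11 refed, Stard4 -1.73 and -1.74, Idi1 -1.26 and -1.34, Msmo1 -0.66 and -0.92, Fdft1 -0.65 and -0.75, Hsd17b7 -1.75 and 0.01, Fasn -2.12 and -0.16, Acaca -2.12 and -0.51, Scd2 -2.11 and -1.06, Scd1 -2.10 and 0.60, Insig1 -1.17 and -0.50, and Abca1 -1.05 and -0.63.

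RiboTag RNA gave a further fasting contrast with libraries of its own. Lipogenic genes were higher in ad libitum RiboTag RNA than in ad libitum sorted cells at ZT2 (median log2 difference of group means 1.52, against 0.24 in sterol synthesis and 0.23 over all genes), a description across experiments. With fasting at ZT2 none of the 35 genes rose and 10 fell (28.6%), against 7.89% of all 15444 genes (4.08% rising and 3.81% falling). Those that fell were Fasn, Acaca, Scd2 and Acss2 of lipogenesis, Hmgcs1 and Lss of sterol synthesis, and Abca1, Insig1, Srebf2 and Srebf1 among regulators. The median log2 difference was -1.99 in lipogenesis (7 of 7 lower), -0.38 in sterol synthesis and -1.20 among regulators. Over all genes it was -0.19, and -0.07 after TMM rescaling and -0.00 in the quasi-likelihood test, which called 9 as falling (2.97% of all genes). The share of rising calls over all genes moved from 51.7% to 65.0% and 68.8% in the same order.

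Fasn was 7536, 4360 and 4012 in ad libitum RiboTag libraries at ZT2 and 1787, 413, 500, 863 and 1011 in fasted ones, with no overlap and a difference of -2.67 ± 0.46 (adjusted p = 0.0016). It was called in each of 14 other settings. Abca1, with 807, 894 and 598 against 137, 48.0, 200.4, 201 and 111, differed by -2.60 ± 0.58 (adjusted p = 0.0114). Srebf2 was 3757, 2868 and 4110 against 1332, 701, 552, 1449 and 709 (-2.01 ± 0.55, adjusted p = 0.0331). All 3 genes had every fasted library below every ad libitum library. The genes with the smallest p next to Fasn and Abca1 were Lss (-1.86 ± 0.42, adjusted p = 0.0118), Insig1 (-1.58 ± 0.38, adjusted p = 0.0165) and Acss2 (-1.68 ± 0.41, adjusted p = 0.0194). The other calls were Hmgcs1 (-1.26 ± 0.31, adjusted p = 0.0205), Acaca (-1.99 ± 0.52, adjusted p = 0.0255), Scd2 (-2.14 ± 0.63, adjusted p = 0.0434) and Srebf1 (-1.32 ± 0.39, adjusted p = 0.0473). The 10 were picked by a small p, and all had groups that did not overlap. How many of all genes had such groups was not counted. Of these 10 calls 9 were lost in at least 1 other setting.

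Hmgcs1 was 7313, 4465 and 4408 in ad libitum and 3112, 2585, 2140, 2563 and 1148 in fasted RiboTag libraries at ZT2. Insig1 was 1471, 946 and 1175 against 495, 313, 604, 384 and 265, and Srebf1 was 3342, 1431 and 1125 against 1041, 866, 781, 535 and 455. In each the highest ad libitum level was that of replicate 1, the library high in oligodendrocyte markers. Sqle, at 2594, 2231 and 2772 against 1994, 2439, 1371, 1543 and 831, overlapped and was not called. Srebf1 was lost in 10, Srebf2 and Scd2 in 7 each and Acaca in 5 of the 14 other settings.

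Markers of other cells moved with single RiboTag libraries. Scd1 was 6213, 922 and 629 in ad libitum and 406, 127, 1133, 218 and 148 in fasted libraries, where its range in sorted NPY-GFP cells was 0 to 297. Scd2 was 59500, 13130 and 11620 in ad libitum and 6692, 2687, 11460, 4255 and 2722 in fasted libraries at ZT2. The 59500 belongs to ad libitum replicate 1, whose 9 oligodendrocyte markers summed to 179100 against 14670 and 17340 in the other ad libitum libraries, and the 11460 to fasted replicate 3, at 250400. Without ad libitum replicate 1 only Fasn was called, and without replicate 2 only 4 genes. Without the 5 RiboTag libraries high in glial markers, 6 fell: Fasn, Scd2, Scd1, Abca1, Insig1 and Srebf2. Summed AgRP markers were 37260 to 145500 in ad libitum and 188200 to 4262000 in fasted RiboTag libraries at ZT2, and their part in the calls was not tested.

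**Figure D4:**
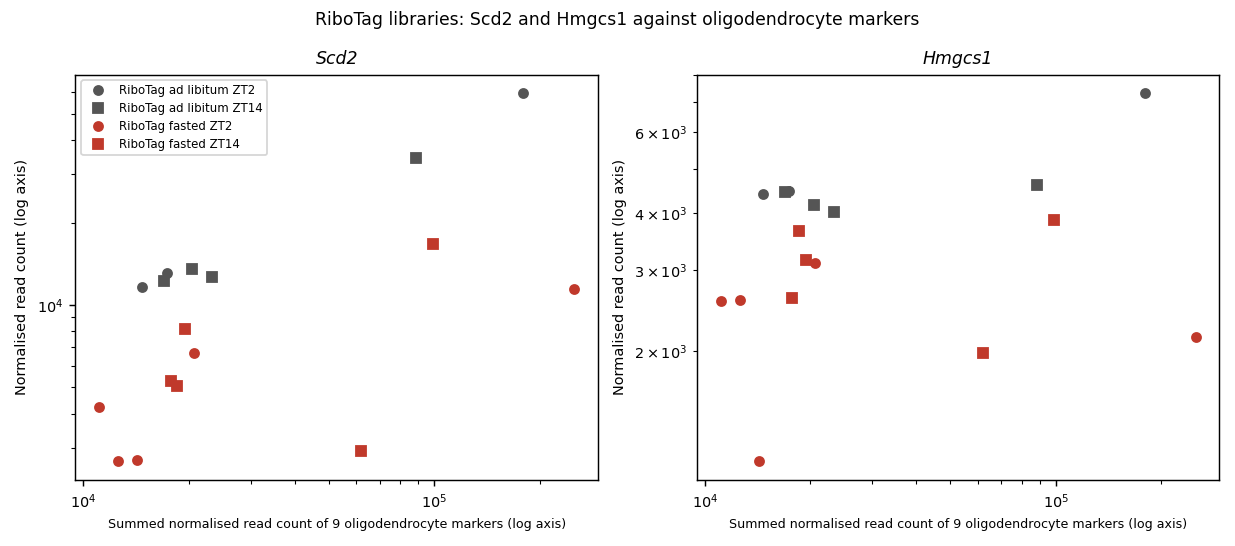
Normalised read count of Scd2 and of Hmgcs1 in each of the 17 RiboTag libraries against the summed normalised read count of 9 oligodendrocyte markers, both on log axes; circles are ZT2, squares ZT14, grey ad libitum and red fasted. The highest Scd2 level, 59500, lies in an ad libitum library with a marker sum of 179100, and the 7 fasted libraries with sums of 11110 to 20660 hold Scd2 at 2687 to 8194, below all ad libitum libraries.

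At ZT14 Fasn (-2.22 ± 0.43, adjusted p = 0.00284) and Abca1 (-1.96 ± 0.53, adjusted p = 0.0385) fell in RiboTag RNA, 5.71% of the 35, against 5.29% of all genes (4.15% rising and 1.14% falling). Fasn was 5476, 4608, 6438 and 4680 in ad libitum and 923, 2533, 545, 1344 and 1065 in fasted libraries, with no overlap. Abca1 was 1124, 715, 870 and 941 against 232, 428, 50.1, 385 and 332, also with no overlap, but was lost in 9 of 15 other settings. A further 11 genes were lower with an unadjusted p under 0.05, and none was higher, which made 13 of the 35 with the called genes. Over all genes 19.2% had an unadjusted p under 0.05 in limma, in either direction. Over all genes the median was -0.16 (-0.09 after TMM rescaling, 0.02 in the quasi-likelihood test), and the share of rising calls was 78.5% (87.1% and 88.3%).

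RiboTag and sorted cells share no library. Of the 12 genes that fell in sorted cells at ZT2 all 12 were lower in RiboTag RNA at ZT2, as were 30 of the 35. Those that passed there were Hmgcs1, Fasn, Acaca, Scd2, Insig1 and Abca1, which are 6 of the 12 and 6 of the 10. How many of all genes that fell in sorted cells were also lower or called in RiboTag RNA was not counted. Of the 3 that rose in sorted cells none was called and 1 was higher, Insig2 (0.53), whereas Nr1h2 (-0.46) and Cyp51 (-0.80) were lower without passing. Over all 35 genes 25 had the same sign, and the share of all genes with the same sign was not counted. Both contrasts carry the library profile of fasted mice. In RiboTag RNA too, genes with a longer union of exons were lower (rho = -0.44 across 13955 genes, -0.62 across the 35).

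Time of day was compared within each state. In sorted cells 0 of the 35 genes were called between ZT14 and ZT2 by limma or the quasi-likelihood test in ad libitum, fasted or refed mice, where 0%, 0.281% and 0.0268% of all genes were called. With an unadjusted p under 0.05 there were 0, 7 (all higher at ZT14) and 11 (10 higher) of the 35. Over all genes 2.77%, 9.87% and 7.62% had one. In refed cells 19 of 20 sterol synthesis genes were higher at ZT14, with a median log2 difference of 0.70 against 0.03 over all genes. Stard4 had the smallest p, 11 to 232 at ZT2 against 241 to 525 at ZT14 (2.05 ± 0.53, adjusted p = 0.248). In RiboTag RNA 0 were called in either state or in the interaction by both tests, against 0% of all genes. At an unadjusted p under 0.05 in limma stood 0, 2 and 1, against 0.596%, 8.94% and 1.63% of all genes.

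The leptin series gave a further test of time, ZT14 against ZT2 averaged over 4 pairs of groups. Elovl6 rose by 0.53 ± 0.11 (adjusted p = 0.0183) and Abca1 fell by 0.90 ± 0.21 (adjusted p = 0.0399), 5.71% of the 35, against 0.638% of all 13942 genes (0.258% rising and 0.38% falling). The Abca1 call was lost in 19 and the Elovl6 call in 3 of 30 other settings. In controls with PBS Elovl6 was 401, 596, 489 and 661 at ZT2 and 867, 672 and 645 at ZT14. In controls with leptin it was 529, 418 and 336 against 705, 726 and 807, and in knockouts with leptin 356, 316 and 356 against 664, 514 and 467, both with no overlap. In knockouts with PBS it was 640.4, 444 and 507 against 573, 635 and 570, which overlapped.

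Sterol synthesis genes were higher at ZT14 in 18 of 20 cases, 10 with an unadjusted p under 0.05 (11.4% of all genes had one), and none was called by limma or the quasi-likelihood test. Their median log2 difference was 0.31, against -0.01 over all genes. In controls with PBS Hmgcs1 was 6934, 4743, 3206 and 2328 at ZT2 and 5347, 4729 and 3345 at ZT14, and in knockouts with PBS 5017, 1859 and 2308 against 4868, 3386 and 5992. Both pairs overlapped. Cyp51 (0.52 ± 0.16, adjusted p = 0.154) and Tm7sf2 (0.56 ± 0.19, adjusted p = 0.189) came nearest among them. The sterol carrier Stard4 had 0.96 ± 0.23 (adjusted p = 0.052), with means of 244 at ZT2 and 430 at ZT14. In PBS groups alone 0 were called by either test in controls or in knockouts, where limma called 0.00717% and 0% of all genes. An unadjusted p under 0.05 in limma was found for 3 of the 35 in controls and 5 in knockouts, against 4.96% of all genes in each. The time effect did not pass as different between knockouts and controls for any of the 35 by either test. None had an unadjusted p under 0.05, against 4.73% of all genes. Knockout PBS ZT2 replicate 2 decided much of this: Sqle was 2530 in it and 669 and 921 in the other libraries of its group, and without it 6 genes were called, Stard4, Elovl6, Mvk, Tm7sf2 and Acat2 rising and Abca1 falling. Within groups of the leptin series the median Pearson's r between sterol genes was 0.43, over 190 pairs of genes and 25 libraries. It was 0.21 over 140 pairs of a sterol and a lipogenic gene, and -0.00 over the 21 pairs of lipogenic genes. These values also carry each library's depth and scaling, and r between pairs drawn from all genes was not computed.

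**Figure D5:**
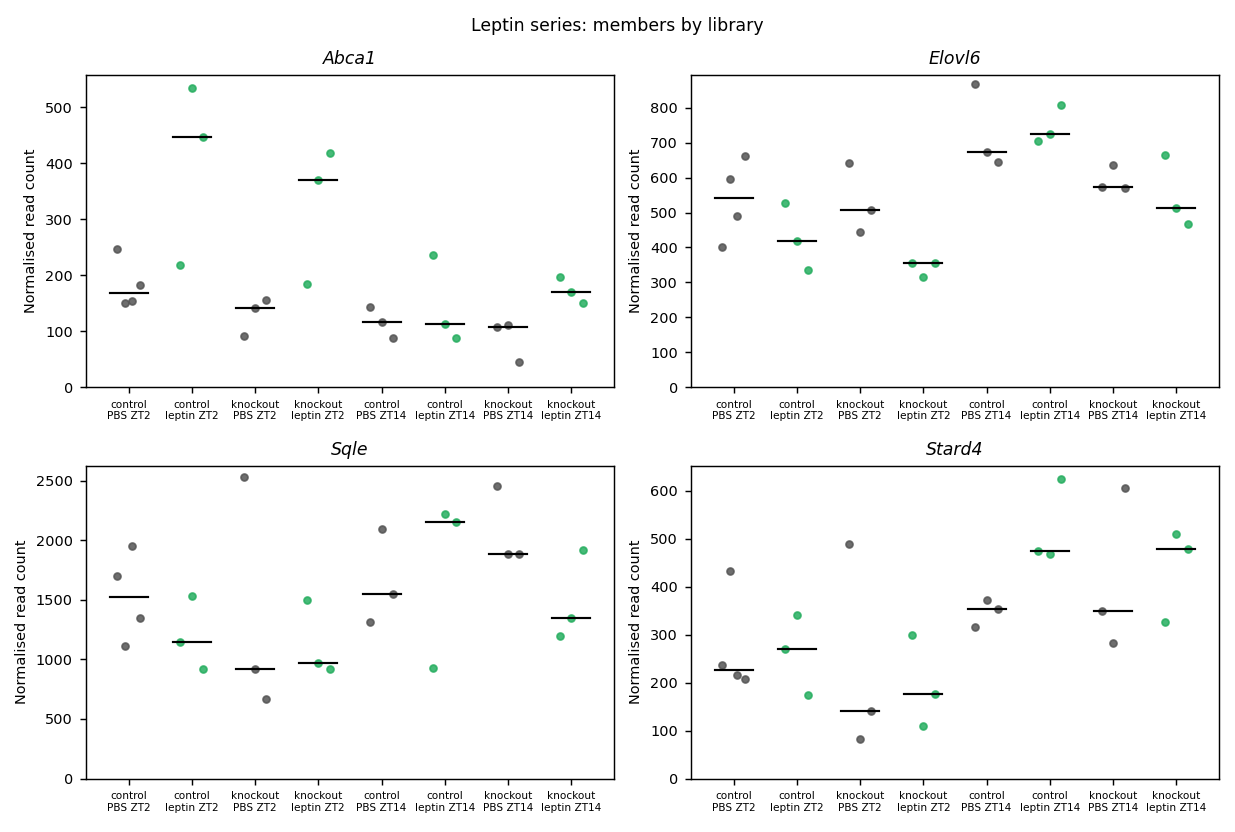
Normalised read count of Abca1, Elovl6, Sqle and Stard4 in each library of the leptin series, from 0 on a linear axis; grey points are PBS, green leptin, and bars medians. Abca1 reached 534 in controls and 417 in knockouts with leptin at ZT2, and 1 of the knockout libraries with PBS at ZT2 stands above its group for Sqle (2530) and Stard4 (490).

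Leptin, the hormone of fat stores that AgRP neurons sense, was compared with PBS in each genotype and time. Averaged over the 4 pairs, Abca1 rose by 0.90 ± 0.21 (limma, adjusted p = 0.0315), the only call among the 35 (2.86%), against 0.925% of all genes (0.789% rising and 0.136% falling). At ZT2 Abca1 was 246, 151, 154 and 183 with PBS and 218, 534 and 447 with leptin in controls, and 92.0, 142 and 157 against 184, 370 and 417 in knockouts. At ZT14 it was 144, 116 and 87.8 against 237, 113 and 88.4 in controls, and 107, 111 and 44.5 against 197, 170 and 150.4 in knockouts. The knockout groups did not overlap at either time, and the control groups did at both. The adjusted p ranged from 0.0116 to 0.0731 over 30 other settings, and the call was lost in 14 of them.

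No gene was called in any single leptin contrast, by limma or the quasi-likelihood test, against 0.0215% of all genes in controls at ZT2, 0% in controls at ZT14, 0.423% in knockouts at ZT2 and 0.0861% in knockouts at ZT14. With an unadjusted p under 0.05 there were 1, 0, 2 and 3 of the 35, against 2.14%, 2.75%, 8.66% and 5.25% of all genes. Lipogenic genes were lower with leptin on average in 7 of 7 cases, none called. Their median log2 difference was -0.24, and Scd2 was nearest (-0.40 ± 0.14, adjusted p = 0.347), with means of 1968 with PBS and 1486 with leptin. Scd2 was 2406, 1654, 1908 and 1837 with PBS and 1911, 1403 and 1313 with leptin in controls at ZT2, and 2788, 1315 and 2507 against 928, 1163 and 1061 in knockouts at ZT14. The latter groups did not overlap. Fasn was 1011, 1809, 1078 and 1266 against 1516, 1197 and 1145 in controls at ZT2, and 1121, 1694 and 3547 against 902, 1360 and 1655 in knockouts at ZT14, overlapping in both. Sterol synthesis genes were lower with leptin in 15 of 20 cases, with a median of -0.15 against -0.00 over all genes, none called. Hmgcs1, for example, was 6934, 4743, 3206 and 2328 with PBS and 3753, 3175 and 1836 with leptin in controls at ZT2. The leptin effect did not pass as different between the genotypes for any of the 35 by either test. None had an unadjusted p under 0.05, against 4.67% of all genes, and for Abca1 the difference was 0.53 ± 0.41.

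Loss of Bmal1 was compared in 5 contrasts of the leptin series and at ZT5, and 0 of the 35 genes were called in any of them by limma or the quasi-likelihood test. Averaged over the 4 pairs, 0.0789% of all genes were called. Elovl6 (-0.26 ± 0.11, adjusted p = 0.51) and Scd2 (-0.32 ± 0.14, adjusted p = 0.569) had an unadjusted p under 0.05, as had 7.81% of all genes. In the 4 single contrasts 0.00717% to 0.0215% of all genes were called. Of the 35 none had an unadjusted p under 0.05 except 2 with leptin at ZT14, where 4.72% of all genes had one. With PBS at ZT2 Fasn was 1011 to 1809 in controls and 623 to 2548 in knockouts, Srebf2 533 to 1075 and 482 to 1116, and Srebf1 91.3 to 319.6 and 187 to 267, all overlapping. At ZT5 0% of all genes were called, and 5 of the 35 had an unadjusted p under 0.05, as had 8.94% of all genes. The library labelled ZT5 control replicate 2 had Nr1h2 at 16.3 and Abca1 at 5.44, against 166 and 156 in replicate 1, and listed Lss at 0. Without the library labelled control replicate 1, and likewise without both libraries whose Hsd11b2 went against their labels (chosen after seeing the data), Lss, Nr1h2 and Abca1 were called as higher in libraries labelled knockout. Both fits then hold 1 control library, which is assumed to vary like the knockouts.

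Other genes of the pathways, 22 of sterol handling and SREBP processing and 18 of fatty acid handling (17 tested), were looked at in the same fits. In fasted sorted cells at ZT2, 3 of the sterol handling genes rose and 7 fell (45.5%, against 37.5% of all genes). Those that fell included the sterol exporter Abcg1 and the lysosomal cholesterol carrier Npc1, and Stard3, an endosomal sterol carrier, rose. Of the fatty acid handling genes 5 rose and 1 fell (35.3%, near that background): the acyltransferase Agpat3, the malic enzyme Me1, the desaturase Scd3, Mid1ip1, which activates acetyl-CoA carboxylase, and the acyl-CoA synthetase Acsl3 rose, and the phosphatidate phosphatase Lpin1 fell. The quasi-likelihood test called 3 rising and 0 falling. In refed against fasted cells at ZT2, 5 sterol handling genes rose, Abcg1 and Npc1 among them, and 3 fell (36.4%, against 21.8% of all genes). Of the fatty acid handling genes 1 rose and 4 fell (29.4%), with Agpat3, Acsl3 and Me1 among the latter.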

How the data were processed

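Levels are the authors' deposited normalised counts, signal per gene with 1 size factor per library. Per the submitters' processing notes, mm10, STAR 2.5.1, featureCounts, DESeq and DESeq2 were used, and the role of each is not given in the sources used here. Per the labels' protocols, libraries were SMART-seq v4 with Nextera XT, from cells sorted for GFP or from immunoprecipitated RiboTag RNA.

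Dividing by the step between low values gave whole reads (within 0.1) in 79 libraries, but for only 20.7% of values in NPY-GFP ad libitum ZT2 replicate 4. On those reads the quasi-likelihood test called 5004 genes for fasting in sorted cells at ZT2, and limma 5593. Each experiment was fitted with limma 3.58.1 (R 4.3.3, trend) on log2(value + 1), which understates changes of low genes, keeping genes at 10 or more in as many libraries as its smallest group holds. Adjusted p (Benjamini-Hochberg) covers every gene of a fit, with a threshold of 0.05, in 31 comparisons. Errors on differences are standard errors. Alternatives were a pseudocount of 10, no filter, TMM rescaling, edgeR 4.0.16 quasi-likelihood on recovered reads, a replicate block, and leaving libraries out. The fits were tested on simulated data.

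The genes named are all members called in a comparison, or beyond 10 the 5 of smallest p in each direction in full, and others by group. Members and lists were chosen with earlier results of these data known. Promoters are from RefSeq and gene positions from GENCODE, both on GRCm38.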

Additional observations from a re-analysis of the deposited data

Results flagged for a closer look

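In 11 of 90 pairs of a gene and a group of 4 to 10 libraries (12.2%, 10 genes and 9 groups), 1 library lay far from the others by Dixon's criterion, where chance gives about 1 in 20. No explanation was tested.

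NPY-GFP fasted ZT2 replicate 6, which also held the most astrocyte and oligodendrocyte marker RNA of the sorted libraries (39580 and 7025), was high for Srebf1 (693.8, others 145.8 to 349.6), Scd1 (98.12, others 0 to 30.69) and Abca1 (292, others 68.33 to 145.6). RiboTag libraries high in oligodendrocyte markers were high for the desaturases: Scd1 was 1133 in fasted ZT2 replicate 3 (others 126.6 to 406.2) and 2158 in fasted ZT14 replicate 4 (others 307.6 to 458.8), and Scd2 was 34430 in ad libitum ZT14 replicate 3 (others 12230 to 13580). RiboTag fasted ZT14 replicate 3, also high in those markers, was low for Srebf2 (209.2, others 1552 to 1800).

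In sorted cells without raised glial markers, fasted ZT14 replicate 5 had Fasn at 2803 (others 240.9 to 780.3) and Elovl6 at 801 (others 352.9 to 564). Refed ZT2 replicate 4 had Scd1 at 297 (others 32.72 to 77.99), and ad libitum ZT2 replicate 6 had Abca1 at 500.5 (others 127.6 to 255.2).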

How the results depend on the processing

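Of 56 calls of a gene in a comparison, 21 held in every setting tried, 35 were lost in at least 1, and 0 changed sign. For refed against ad libitum cells at ZT2 the 10 calls became 5 in the quasi-likelihood test and 6 without ad libitum replicate 4 of uneven values. For RiboTag RNA the 10 calls at ZT2 became 6 without libraries high in glial markers (chosen after seeing the data), and the 2 at ZT14 became 1 without a filter, with the replicate block, in the quasi-likelihood test and without those glial libraries. In fasted sorted cells 1 gene, Hsd17b7, passed between ZT14 and ZT2 without them. In the leptin series the 1 leptin call became 0, and the 2 time calls became 1, both without a filter and with the replicate block. At ZT5 the 0 calls became 3 without the library labelled control replicate 1 (Hsd11b2 at 4628, as in knockouts), and 3 also without it and the library labelled knockout replicate 3 (Hsd11b2 at 11.2, as in controls), the latter chosen after seeing the data. The causes were not tested, beyond the fewer libraries or other genes tested. Leaving out 1 library gave 3 to 6 calls for fasting in sorted cells at ZT14, 1 to 5 for refed against fasted at ZT14, 2 to 13 for refed against ad libitum at ZT2, 0 to 1 for time in fasted sorted cells, 1 to 11 and 1 to 3 for fasting in RiboTag RNA at ZT2 and ZT14, 0 to 1 for leptin, 0 to 6 for time in the leptin series, and 0 to 3 at ZT5.

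Outside the leptin series replicate numbers gave no clear pairing of libraries. The median correlation of same-numbered libraries' deviations from their group means was 0.00 in sorted NPY-GFP cells (12 of 65 pairs above 0.1). It was -0.03 in RiboTag (7 of 22) and -0.02 at ZT5 (0 of 2). In the leptin series it was 0.03 (22 of 78), against -0.02 between different numbers, with 11 of 25 libraries closest to their own number. Whether numbers pair libraries in that series is not settled. Low levels limit Scd1, Lss, Stard4 and Hsd17b7, which reach 0 or few reads in some libraries.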
